A study of Mus musculus with 2 samples.

Results

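In mast cells grown from mouse bone marrow, with 1 Dnmt3a knockout and 1 wild-type culture, 1617 regions near the ends of protein-coding genes carried an ATAC-seq peak in the knockout list and none in the wild-type list. The members were found by merging the intervals of both peak lists wherever they overlapped by at least 1 bp on chromosomes 1 to 19 and X, which gave 23364 merged regions. Of these, 6541 held a knockout peak only, and 1617 of the 6541 (24.7%, exact 95% interval 23.7 to 25.8) lay no more than 1 kb from the first or last base of a protein-coding gene (mm10 assembly). The regions were selected on a measured value, the presence of a peak in the knockout list and its absence from the wild-type list, so their absence from the wild-type list and their peak values are descriptions and not findings. Both cultures came from the marrow of female mice aged 3 to 4 weeks, one carrying a deletion of Dnmt3a and one a wild-type littermate. Both were grown for 4 weeks with interleukin 3 (IL-3) until more than 95% of the cells carried Kit and the IgE receptor chain FcεRIα on their surface, per the labels' protocols. The sources used here do not say whether marrow was pooled, which promoter or exon the deletion used, or how much Dnmt3a remained. Each genotype had 1 library, so no difference between genotypes has a replicate check, no p-value is given, and every interval below covers counting error only.

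ATAC-seq cuts open chromatin with the Tn5 transposase, so that reads pile up where DNA is not packed into nucleosomes. The starts of active genes are the most regular sites of such openings, and in mammals most of them sit in stretches rich in CpG dinucleotides. Dnmt3a is one of the enzymes that add methyl groups to the cytosine of CpG, and methylated CpG-rich promoters are usually closed. Mast cells are the granule-bearing cells that release histamine, proteases and cytokines when antigen crosslinks IgE on their surface.

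The promoters below are shown because they span the range of the members: the 3 strongest members that overlap a promoter window, a pair with the highest CpG counts, a pair among those with the lowest, and a pair at genes of mast cell function. Each run is the 250 bases before a start annotated in RefSeq, on the gene's strand from 5′ to 3′, from assembly GRCm38.p6. Every CpG is in capitals. The annotated start can lie inside the gene interval whose end counts as the gene start elsewhere in this text. That is so at Cd244a, Tpsg1, Gas2 and Lat, where part or all of the run lies inside the gene.
Rlf (chr4:121215085-121215334, minus strand): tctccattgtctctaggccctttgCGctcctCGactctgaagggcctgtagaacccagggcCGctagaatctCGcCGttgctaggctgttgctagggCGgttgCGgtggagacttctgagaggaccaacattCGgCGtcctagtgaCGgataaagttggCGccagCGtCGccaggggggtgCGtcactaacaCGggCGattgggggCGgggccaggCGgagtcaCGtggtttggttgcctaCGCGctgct
Rab8b (chr9:66919706-66919955, minus strand): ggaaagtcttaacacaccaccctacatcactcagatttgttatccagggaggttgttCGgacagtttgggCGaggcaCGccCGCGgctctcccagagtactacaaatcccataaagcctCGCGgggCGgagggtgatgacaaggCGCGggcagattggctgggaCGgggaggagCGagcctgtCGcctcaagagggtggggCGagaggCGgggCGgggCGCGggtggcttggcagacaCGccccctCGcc
1700003F12Rik (chr2:154548654-154548903, plus strand): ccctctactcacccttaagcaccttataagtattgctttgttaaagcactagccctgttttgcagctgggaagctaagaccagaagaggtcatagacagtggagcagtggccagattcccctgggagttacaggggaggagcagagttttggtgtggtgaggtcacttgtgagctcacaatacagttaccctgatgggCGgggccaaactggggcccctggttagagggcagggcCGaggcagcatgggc
Foxk2 (chr11:121259737-121259986, plus strand): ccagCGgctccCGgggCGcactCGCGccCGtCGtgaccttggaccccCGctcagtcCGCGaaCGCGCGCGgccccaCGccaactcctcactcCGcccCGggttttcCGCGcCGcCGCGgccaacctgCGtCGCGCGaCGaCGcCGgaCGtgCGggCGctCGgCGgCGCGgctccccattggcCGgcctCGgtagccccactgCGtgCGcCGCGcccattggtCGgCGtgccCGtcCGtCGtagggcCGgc
Gas2 (chr7:51861765-51862014, plus strand): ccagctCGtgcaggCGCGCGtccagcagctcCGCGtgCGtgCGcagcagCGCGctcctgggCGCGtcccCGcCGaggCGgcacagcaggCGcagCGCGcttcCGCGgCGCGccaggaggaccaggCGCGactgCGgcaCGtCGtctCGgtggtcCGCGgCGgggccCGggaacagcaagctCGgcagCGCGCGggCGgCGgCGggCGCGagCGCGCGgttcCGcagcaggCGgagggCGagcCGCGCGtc
Cd244a (chr1:171558943-171559192, plus strand): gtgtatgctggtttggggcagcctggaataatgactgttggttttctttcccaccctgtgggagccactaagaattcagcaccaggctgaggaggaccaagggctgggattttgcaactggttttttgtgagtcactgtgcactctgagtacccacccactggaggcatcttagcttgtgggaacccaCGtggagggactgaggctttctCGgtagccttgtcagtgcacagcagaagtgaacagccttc
Tpsg1 (chr17:25369023-25369272, plus strand): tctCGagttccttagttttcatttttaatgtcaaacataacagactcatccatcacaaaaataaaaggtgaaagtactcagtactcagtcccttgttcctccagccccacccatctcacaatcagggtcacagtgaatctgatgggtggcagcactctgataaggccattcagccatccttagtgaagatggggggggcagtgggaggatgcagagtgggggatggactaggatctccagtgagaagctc
Slc18a2 (chr19:59260628-59260877, plus strand): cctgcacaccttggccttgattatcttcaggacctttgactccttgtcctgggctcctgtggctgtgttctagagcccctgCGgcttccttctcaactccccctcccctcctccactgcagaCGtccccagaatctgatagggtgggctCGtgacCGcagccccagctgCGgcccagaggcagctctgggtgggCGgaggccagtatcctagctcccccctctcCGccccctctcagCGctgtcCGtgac
Lat (chr7:126369569-126369818, minus strand): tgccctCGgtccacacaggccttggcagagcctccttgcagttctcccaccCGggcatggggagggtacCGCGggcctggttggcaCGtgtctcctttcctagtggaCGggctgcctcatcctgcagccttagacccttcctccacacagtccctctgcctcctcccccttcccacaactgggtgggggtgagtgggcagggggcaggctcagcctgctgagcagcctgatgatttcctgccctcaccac

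These runs hold very different amounts of the dinucleotide that Dnmt3a methylates. The Foxk2 run holds 48 CpG and the Gas2 run 50, while the runs of 1700003F12Rik and Cd244a hold 2 each and that of Tpsg1 holds 1. Rlf has 21 and Rab8b 20, and the mast cell genes Slc18a2 and Lat have 9 and 6. A knockout-only region covers 161 bases of the Rlf run, 184 of the Rab8b run, 66 of the 1700003F12Rik run, 162 of the Foxk2 run and 139 of the Lat run.

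The knockout list held 19684 peaks and the wild-type list 17170, and the median number of reads stacked at a summit (the pileup) was 9 in both. The labels state a depth of 10M single reads of 50 bases per library, and the depth of each library is otherwise unknown, because the peak lists carry no read totals. The lowest local background, in reads, was 0.0599 in the knockout list and 0.0644 in the wild-type list. The labelled cell type was checked on 10 mast cell markers. A shared region lay at an end of 5 of them (Kit, Gata2, Mitf, Ms4a2 and Tpsb2), Hdc had a knockout-only region, Cpa3 and Fcer1a each had a wild-type-only region, and Srgn and Il1rl1 had no region at an end. The Dnmt3a gene itself (chr12:3801559-3914443) had no region within 1 kb of either end in either list. Its body held a wild-type-only region at chr12:3897094-3897359 with a −log10 q of 21.8, the highest of all wild-type-only regions inside genes, beside 4 shared regions, 1 knockout-only region and 1 other wild-type-only region.

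The knockout-only regions were weak peaks. Their −log10 q, the authors' peak significance after correction, had a median of 6.54 with quartiles of 5.28 and 8.14, and it ran between 2.07 and 25.1. Their fold enrichment over background had a median of 6.35, their summits a median pileup of 7 reads, and their width a median of 118 bp. Of the 1617 members, 1319 reached a −log10 q of 5, 203 reached 10, 23 reached 15 and 2 reached 20. The 1085 wild-type-only regions at gene ends were of the same order, with a median −log10 q of 6.03 and a median pileup of 7 reads, and 69 of them reached 10. The 5639 shared regions at gene ends stood apart, with a median −log10 q of 13.0 and a median pileup of 13 reads in the knockout library. The lowest pileup that was called was 3 reads in either list. Read coverage of the wild-type library at the members is not part of the lists, so the lack of a wild-type peak is not a measured lack of accessibility. In a bulk culture, more cells with an open site and a site more open in each cell cannot be told apart.

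**Figure D1:**
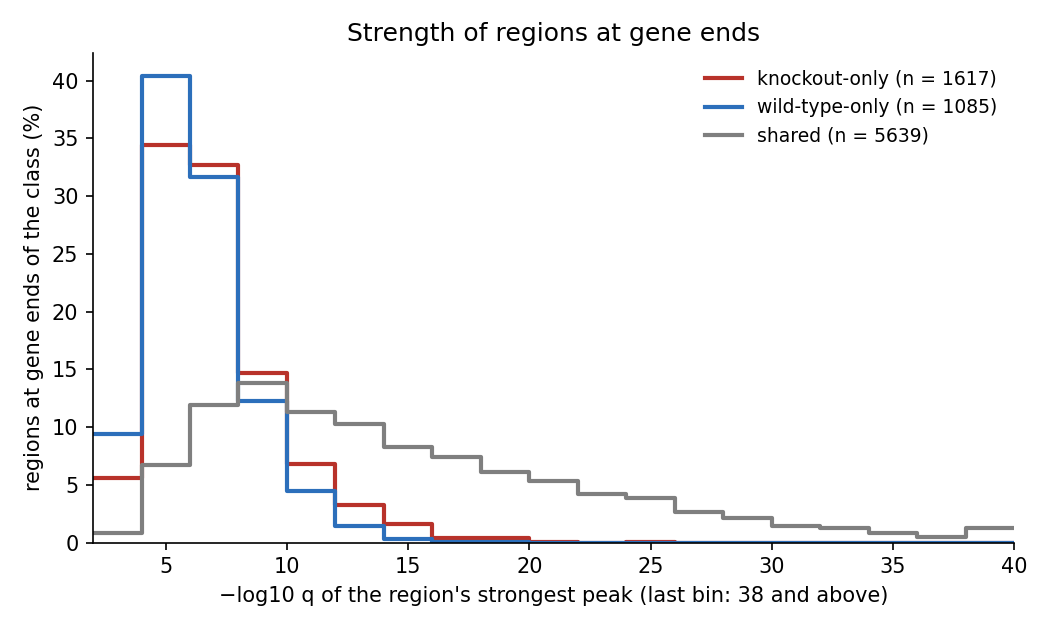
Strength of regions at gene ends: −log10 q of the strongest peak (x axis, bins of 2) against the percent of regions of the class, for knockout-only (knockout peak), wild-type-only (wild-type peak) and shared regions (knockout peak). Both unshared classes pile up below 10, where 203 of 1617 knockout-only and 69 of 1085 wild-type-only regions are above that value, and the shared class reaches far higher.

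Gene ends were the places where knockout regions most often did have a wild-type partner. Of all 8341 regions at gene ends, 19.4% were knockout-only and 67.6% were shared, while 48.4% of regions inside genes and 47.7% of regions between genes were shared. Within classes of strength, gene ends had the lowest share of knockout regions without a partner in each class, and its interval was clear of the others at 5 to 10 and at 10 to 15 and overlapped at least 1 of them in the other classes. Among knockout regions with a −log10 q of 5 to 10, 39.2% at gene ends lacked a wild-type partner, against 53.9% inside genes and 52.3% between genes. At 10 to 15 the shares were 10.9% at gene ends, 19.3% inside genes and 17.1% between genes, and below 5 they were 67.3% at gene ends, 74.6% inside genes and 73.6% between genes. At 15 to 20 they were 2.11% at gene ends, 4.07% inside genes and 4.85% between genes. At 20 or more, 2 of 1319 knockout regions at gene ends lacked a partner, 1 of 518 inside genes and 3 of 330 between genes.

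**Figure D2:**
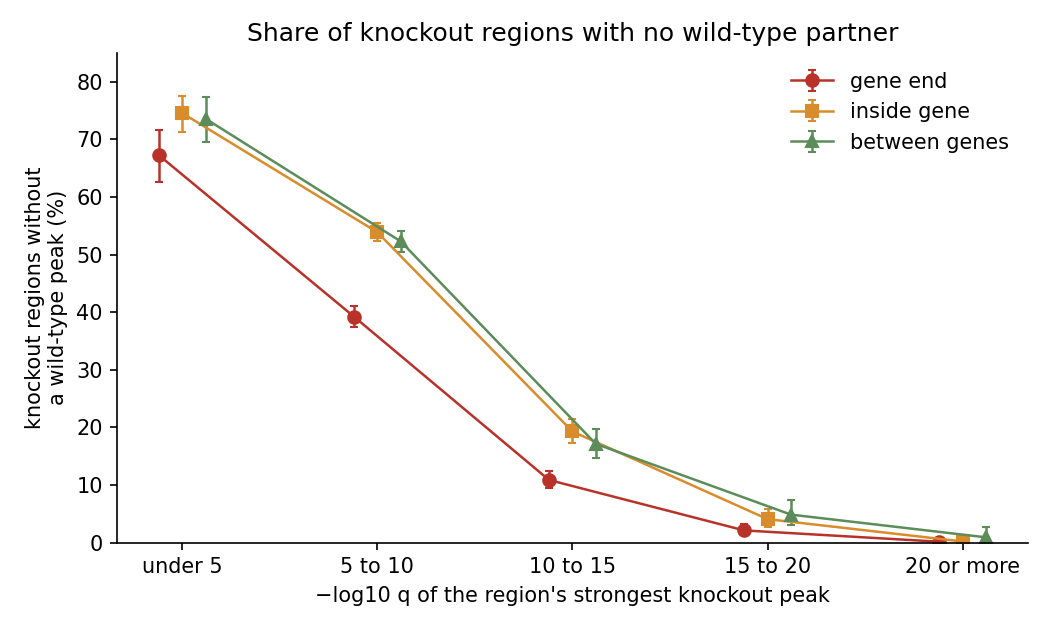
Percent of knockout regions with no wild-type peak (y axis) by −log10 q of the knockout peak (x axis), at gene ends, inside genes and between genes, with exact 95% intervals as bars. At 5 to 10 the share at gene ends (39.2%) lies below the share inside genes (53.9%) and between genes (52.3%).

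Knockout-only regions at gene ends outnumbered wild-type-only ones, 1617 against 1085, a ratio of 1.49 (1.38 to 1.61). The ratio was 1.79 (1.68 to 1.90) inside genes and 1.62 (1.51 to 1.74) between genes. The knockout list was also the longer one, and the source of the excess was not tested. Lists cut to equal length hold unshared counts near each other whatever the source. When the knockout list was shortened to its 17170 strongest peaks, as many as in the wild-type list, the ratio at gene ends turned to 0.923 (0.853 to 0.999), with 1215 knockout-only and 1316 wild-type-only regions. In that comparison the ratio was 1.11 (1.04 to 1.18) inside genes and 1.03 (0.957 to 1.11) between genes, so gene ends kept the lowest of the 3 ratios in both.

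The members sat mostly where transcription begins. The strand of at least 1 nearby gene was known for 1327 members. Of these, 91.0% (89.3 to 92.4) lay within 1 kb of at least 1 gene start, against 93.5% of wild-type-only and 96.5% of shared regions. Members near a gene finish only made up 9.04% (7.55 to 10.7), against 6.50% (4.95 to 8.36) of wild-type-only and 3.54% (3.03 to 4.10) of shared regions. The interval for the members did not overlap that of the shared regions but overlapped that of the wild-type-only regions. For the other 290 members the reference used here gives no strand, so start and finish cannot be told apart. Some of the 1327 members also lie near a gene of unknown strand, and a start of that gene would be missed in these shares.

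Around the start, member summits were centred on the first base and leaned into the gene. The median summit of the 1207 members near a start was 7 bp downstream, against 11 bp downstream for wild-type-only regions and 27 bp upstream for shared regions. Within 100 bp of the start lay 53.0% of member summits (50.2 to 55.9), against 48.9% of wild-type-only and 60.3% of shared summits. More than 100 bp into the gene lay 30.7% of member summits (28.1 to 33.4), against 33.0% of wild-type-only summits (29.8 to 36.4) and 18.6% of shared summits (17.5 to 19.7). The unshared classes thus overlapped each other in these shares, and both differed from the shared class beyond counting error. Shared regions were also stronger, with a median −log10 q of 13.0 against 6.54 and 6.03, and position was not compared at equal strength.

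**Figure D3:**
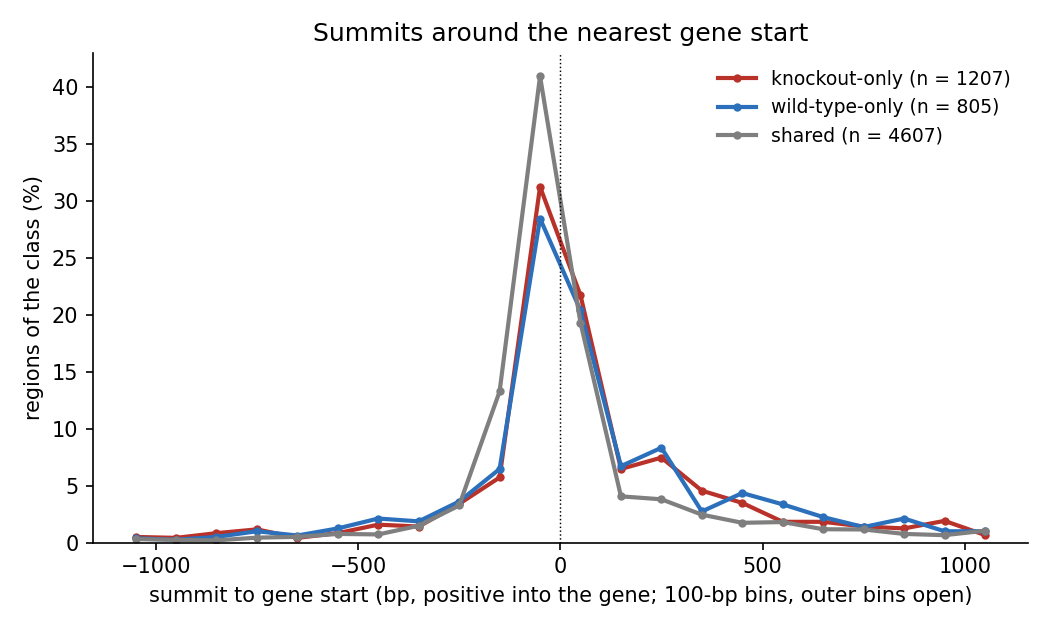
Distance of region summits to the nearest gene start (x axis, bp, positive into the gene, bins of 100 bp with the outermost bins open) against the percent of regions of the class, for 1207 knockout-only, 805 wild-type-only and 4607 shared regions. Shared summits peak higher just before the start, and both unshared classes hold more summits beyond 100 bp into the gene (30.7% and 33.0%, against 18.6%).

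Summits lay further from the start, on both sides of it, among members that neighboured a shared region. By the rule a member cannot overlap such a region. At the same gene end as 265 members (16.4%, 14.6 to 18.3) there was also a region shared by both lists, and the same was true of 240 wild-type-only regions (22.1%, 19.7 to 24.7). Of the members near a start that had such a neighbour, 28.4% had their summit within 100 bp of the start. In 47.6% it was more than 100 bp into the gene, and in 24.0% more than 100 bp upstream. Of those near a start with no wild-type peak at the end, 60.7% were within 100 bp, 24.6% further into the gene and 14.7% further upstream. Wild-type-only regions split in the same way, with 26.5%, 47.4% and 26.0% beside a shared region. Without a knockout peak at the end these shares were 58.1%, 27.3% and 14.6%. These are positions of called peaks, and whether neighbouring peaks are separate openings or pieces of 1 opening was not tested.

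For 1229 members (76.0%, 73.8 to 78.1) the gene end held no wild-type peak of any kind, against 723 wild-type-only regions (66.6%, 63.7 to 69.4) whose end held no knockout peak. The nearest wild-type peak was a median of 15522 bp away. It lay within 100 bp of 154 members (9.52%), within 500 bp of 341 (21.1%) and within 1 kb of 392 (24.2%). Knockout-only regions inside genes had a wild-type peak within 1 kb less often, at 8.70% (7.71 to 9.78), and wild-type-only regions at gene ends had a knockout peak within 1 kb more often, at 33.9% (31.1 to 36.8). Just inside the limit of 1 kb to the gene end lay regions near Cdc42ep1, Kcnh2 and Slc25a39 at 992, 997 and 999 bp, with −log10 q of 3.74, 4.92 and 7.11. Just outside lay regions near Tmem86b and N4bp2l2 at 1008 and 1012 bp, with −log10 q of 7.87 and 8.49.

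The 1617 members stood at the ends of 1788 genes, which is 8.27% of the 21631 protein-coding genes. A wild-type-only region stood at an end of 5.65% of genes and a shared region at an end of 28.6%. Counting only genes with no peak of the other library at either end, 1227 genes (5.67%) had knockout-only regions alone and 737 (3.41%) had wild-type-only regions alone. At the 17274 gene starts with known strand, 933 had a peak in the knockout list only, 540 in the wild-type list only and 5033 in both. Most members touched 1 gene: 1361 did, 251 lay near the ends of 2 genes and 5 near the ends of 3. Members within 1 kb of starts on both strands made up 8.47% (7.16 to 9.94), against 9.12% of wild-type-only and 11.3% of shared regions.

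Few genes held more than 1 member. Of the 1788 genes, 1699 had 1 member, 88 had 2 and only Pheta2, which encodes a protein of endosomal recycling, had 3. Of the 3, 2 lay near the start of Smdt1, a subunit of the mitochondrial calcium uniporter. Of the genes with 2, the highest sums of −log10 q belonged to the neighbours Ccdc58 and Fam162a (22.3 for each, from the same members), to the DNA structure endonuclease gene Mus81 (20.5), to the neighbours 0610012G03Rik and Ncbp2 (19.9 for each) and to Cdc42 (19.9), a small GTPase of cell polarity. Cdc42 had 1 member 48 bp into the gene with a −log10 q of 14.5 and 15 reads, and a second 1033 bp upstream with 5.46 and 8 reads. Of the 5 members near 3 genes, the strongest 3 lay at Senp3, Tnfsf13 and Tnfsfm13 (−log10 q 7.49), at Dnajc17, Gm14137 and Gchfr (7.32) and at Prdx5, Trmt112 and Esrra (6.54).

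The strongest member lay at Rlf (chr4:121215085-121215245), a zinc finger protein gene, with a −log10 q of 25.1, a fold of 15.7 and 19 reads at a summit 41 bp upstream of the start, and the nearest wild-type peak was 173937 bp away. The next lay at Rab8b (chr9:66919674-66919889), a Rab GTPase of vesicle traffic, with a −log10 q of 21.0 and 20 reads at 68 bp upstream. The member at 1700003F12Rik (chr2:154548838-154549037) had a −log10 q of 19.8 and 20 reads and was the only one of these 3 at a promoter poor in CpG. Both leading members reached pileups above the shared median of 13 reads.

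After these, the members at Gnl2 (−log10 q 19.1), a nucleolar GTPase, at Washc1 (18.98), a subunit of the endosomal WASH complex, and at Fam120b (18.7) each overlapped the gene end. The member at Taf8 (18.5), a subunit of the basal transcription factor TFIID, had its summit on the start itself but lay 10 bp from a wild-type peak, and the gene end also held a shared region. The member at Actr5 (17.5), an actin-related protein of the INO80 remodeller, likewise lay 38 bp from a wild-type peak. Slc39a3 (18.2), a zinc transporter, Castor2 (17.9), Gm12258 (16.8), Mtdh (16.2) and Cib2 (16.0) had no wild-type peak within 10 kb. The member at Zfp653 (18.1) was shared with Ecsit and lay 382 bp from a wild-type peak. The member between Rad51c, a recombination repair gene, and Tex14, a gene of male germ cells, had a −log10 q of 17.7 and stood within 1 kb of both starts.

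Genes of mast cell function were examined by lists, read against the 8.27% of all genes with a member and against 21.5% of the genes that had any region at an end. Of 24 mast cell effector genes, 3 had a member. Slc18a2, the vesicular transporter that loads histamine and other amines into granules, had 2, at 52 bp upstream of its start with a −log10 q of 5.60 and 8 reads and at 919 bp into the gene with 5.25 and 8 reads. Tpsg1, a membrane-bound tryptase, had a member 93 bp into the gene with 4.94 and 11 reads, and Hdc, the enzyme that makes histamine, had one near its finish with 4.78 and 4 reads. All 3 were below the members' median of 6.54, and 1 of the 3 genes had a member with equal numbers of peaks. Another 3 effector genes went the other way and had a wild-type-only region with no knockout peak, namely Cma1, a chymase (−log10 q 5.17, 9 reads), Cpa3, the granule carboxypeptidase (5.28, 10 reads) and Fcer1a, the IgE-binding receptor chain (9.67, 12 reads). In the list of 32 mast cell transcription factors, 1 gene, Etv6, had a member (5.52), 4 had a wild-type-only region and 16 had a shared region.

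IgE receptor and Kit signalling genes had members more often, at 9 of 41 (22.0%, 10.6 to 37.6). None of the 9 had a wild-type peak at an end, which also held for 1227 of all 1788 genes with a member. The 9 were led by Vav2, an exchange factor for small GTPases (−log10 q 14.2, 13 reads, 531 bp into the gene), Lat, the adaptor that gathers the signalling complex below the receptor (11.9, 11 reads), and Rasgrp1, which activates Ras (11.9, 12 reads). Gab2 (7.11), an adaptor, Prkcd (6.99), a protein kinase C, Lyn (6.16), the kinase that first phosphorylates the receptor, and Akt1 (8.34 and 4.42, at its finish and start) also had members. Against these, 5 genes of the same list had a wild-type-only region and no knockout peak: Vav1 (6.50), Ptpn11 (5.30), Lcp2 (4.96), Plcg2 (4.53) and Sos2 (4.22). Of the 31 genes in the list with any region, 29.03% had a member (14.2 to 48.0), an interval that includes the 21.5% of all such genes.

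Among cytokine genes, 5 of 41 had a member, and only 9 of the 41 had any region at an end. Of those 9, 55.6% had a member (21.2 to 86.3), an interval that includes the 21.5% of all genes with any region. Il6 had one 160 bp upstream of its start (chr5:30012888-30013018) with a −log10 q of 10.6 and 12 reads, with a wild-type peak 188 bp away. Il13, a type 2 cytokine that mast cells secrete, had one 9 bp into the gene (chr11:53634642-53634769) with 7.58 and 8 reads and its nearest wild-type peak was 17151 bp away. The members at Osm (7.31) and Ccl24 (7.14) had summits 901 bp and 34 bp from the gene end, in genes of unknown strand here, and Tgfb1 had 2 near its finish (5.43 and 5.33). Of the receptors, 3 of 37 had a member: Il3ra (5.65, with a wild-type peak 103 bp away), Il4ra (4.64) and Csf2rb (6.38 and 5.47). Csf2rb has a near-identical neighbour, Csf2rb2, so short reads there may be placed on either copy and both values are uncertain. Csf2rb2 had a wild-type-only region (−log10 q 7.33, 11 reads) and no knockout peak at an end, as had 4 other receptor genes, namely Ifnar2 (8.66 and 6.82), Il10rb (6.82, the same region), Il27ra (6.60) and Il10ra (5.68 and 5.62).

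Inflammatory transcription factor genes had a member at 9 of 46 (19.6%, 9.36 to 33.9). Of the 27 with any region, 33.3% had a member (16.5 to 54.0), an interval that includes the 21.5% of all such genes. No wild-type peak lay at an end of 5 of the 9, against 1227 of all 1788 genes with a member. A wild-type-only region lay at an end of 6 of the 46, of which 3 had no knockout peak at an end. Nr4a2, an orphan nuclear receptor induced on activation, led with a −log10 q of 14.1 and 12 reads 171 bp upstream of its start and a nearest wild-type peak 57450 bp away. Irf3 had 9.16, Jun 8.14, the NF-κB subunit gene Rela 7.68, Irf8 7.31, Nfkbia, which encodes an inhibitor of NF-κB, 6.83, Stat6 6.05, Egr1 5.38 and Cebpd 4.56. The 3 genes with a wild-type-only region alone were Fos (−log10 q 7.48, 9 reads), the Nr4a2 paralogue Nr4a3 (7.24, 13 reads) and Atf3 (5.54, 7 reads). The Jun member lay 990 bp from the gene and close to the limit of the rule. Of eicosanoid and granule release genes, 5 of 32 had a member. Of the 19 with any region, 26.3% had a member (9.15 to 51.2), which again includes 21.5%. Hpgds, the synthase of prostaglandin D2 in mast cells, had 9.90 and 9 reads 219 bp into the gene, with the nearest wild-type peak 449484 bp away. Stxbp2 had 2 (7.58 and 6.16), and Bloc1s1 (7.08), Unc13d (6.35) and Rab27b (3.58) had 1 each.

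Of 26 genes of DNA methylation, 1 had a member, Gadd45g (−log10 q 7.94, 12 reads). That is 3.85% (0.0973 to 19.6), an interval that includes the 8.27% of all genes, and 14 of the 26 had a shared region and none had a wild-type-only one. Germline genes, which are a classic group silenced by promoter methylation, had 1 of 27 (3.70%, 0.0937 to 18.97), Tex14, through the member that also lay near Rad51c, and only 4 of the 27 had any region at an end. Of 53 histone and chromatin modifier genes, 9 had a member and 31 had a shared region: Eed of the Polycomb complex (11.1), Ehmt1 (9.95), Smarcb1 (8.69), Hdac10 (7.70), Ep300 (7.68), Hdac2 (6.75), Hdac3 (6.16), Hdac8 (5.71) and Crebbp (5.12). Of these 9 genes, 3 had no wild-type peak at an end, and the count was 4 when no wild-type peak lay within 1 kb of the region. Of all 1788 genes with a member, 1227 had no wild-type peak at an end. Of the 37 chromatin genes with any region, 24.3% had a member (11.8 to 41.2), an interval that includes the 21.5% of all such genes.

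Autophagy and lysosome genes had members at 10 of 40 (exact 95% interval 12.7% to 41.2%), against 5 with a wild-type-only region. With equal numbers of peaks in both lists this count was 5 of 40, while that of IgE receptor and Kit signalling genes was 9 of 41 in both settings. They were Mcoln1, a lysosomal calcium channel (10.1), Atg7 (8.11), Atg13 (8.02), Map1lc3b (7.09), Hexa (5.37), Atg5 (5.25), Lamp2 (5.09), Becn1 (4.92), Gaa (3.58) and Tfeb (3.34), so 6 of the 10 were below the members' median. Of 33 such genes with any region, 30.3% had a member (15.6 to 48.7), which again includes 21.5%. Cell cycle genes had 7 of 42 (4 with equal numbers of peaks), against 6 with a wild-type-only region. The 7 make 16.7% (6.97 to 31.4), an interval that includes the 8.27% of all genes. They were led by Aurka (11.5, with a wild-type peak 4 bp away), Top2a (11.3) and Myc (7.67). Of the 32 cell cycle genes with any region, 21.9% had a member, next to the 21.5% of all such genes. DNA repair genes had 3 of 39 (Xpa 9.31, Ercc3 7.14 and Fancg 3.90), against 5 with a wild-type-only region. Apoptosis genes had 1 of 36 (Ripk1, 4.49, with a wild-type peak 45 bp away), against 5 with a wild-type-only region. Interferon response genes had 2 of 36 (Tbk1, 6.98, and Irak4, 6.08), against 2 with a wild-type-only region. Stem and progenitor genes had 1 of 28 (Cd34, 10.1), against 1 with a wild-type-only region. Housekeeping genes had 2 of 20 (Eef1a1, 5.85, and Ubb, 5.68 and 4.62), against 4 with a wild-type-only region.

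Large gene families were counted in the same way. Cytosolic ribosomal protein genes had members at 16 of 83 (19.3%, 11.4 to 29.4), against 7 with a wild-type-only region, with examples at Rpl14 (14.0) and Rps15a (11.3). Mitochondrial ribosomal protein genes had 14 of 78, against 7 with a wild-type-only region, led by Mrpl49 (11.2), Mrpl55 (11.0) and Mrps15 (10.5). Proteasome genes had 6 of 49, against 6 with a wild-type-only region, led by Psmd13 (11.1, with a wild-type peak 281 bp away). Of the 34 proteasome genes with any region, 17.6% had a member (6.76 to 34.5). Of the ribosomal genes with any region, 21.9% of the cytosolic and 22.6% of the mitochondrial group had a member, both next to the 21.5% of all genes with any region. The ribosomal proteins have processed copies elsewhere in the genome, so reads there may be placed uncertainly. Zfp genes had 42 of 397 with a member and 38 with a wild-type-only region, and solute carrier genes 32 of 346, against 18 with a wild-type-only region. Of 1110 olfactory receptor genes, 2 had a member (Olfr1509, 12.1, and Olfr1419, 6.24), and of 353 vomeronasal receptor genes none had.

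**Figure D4:**
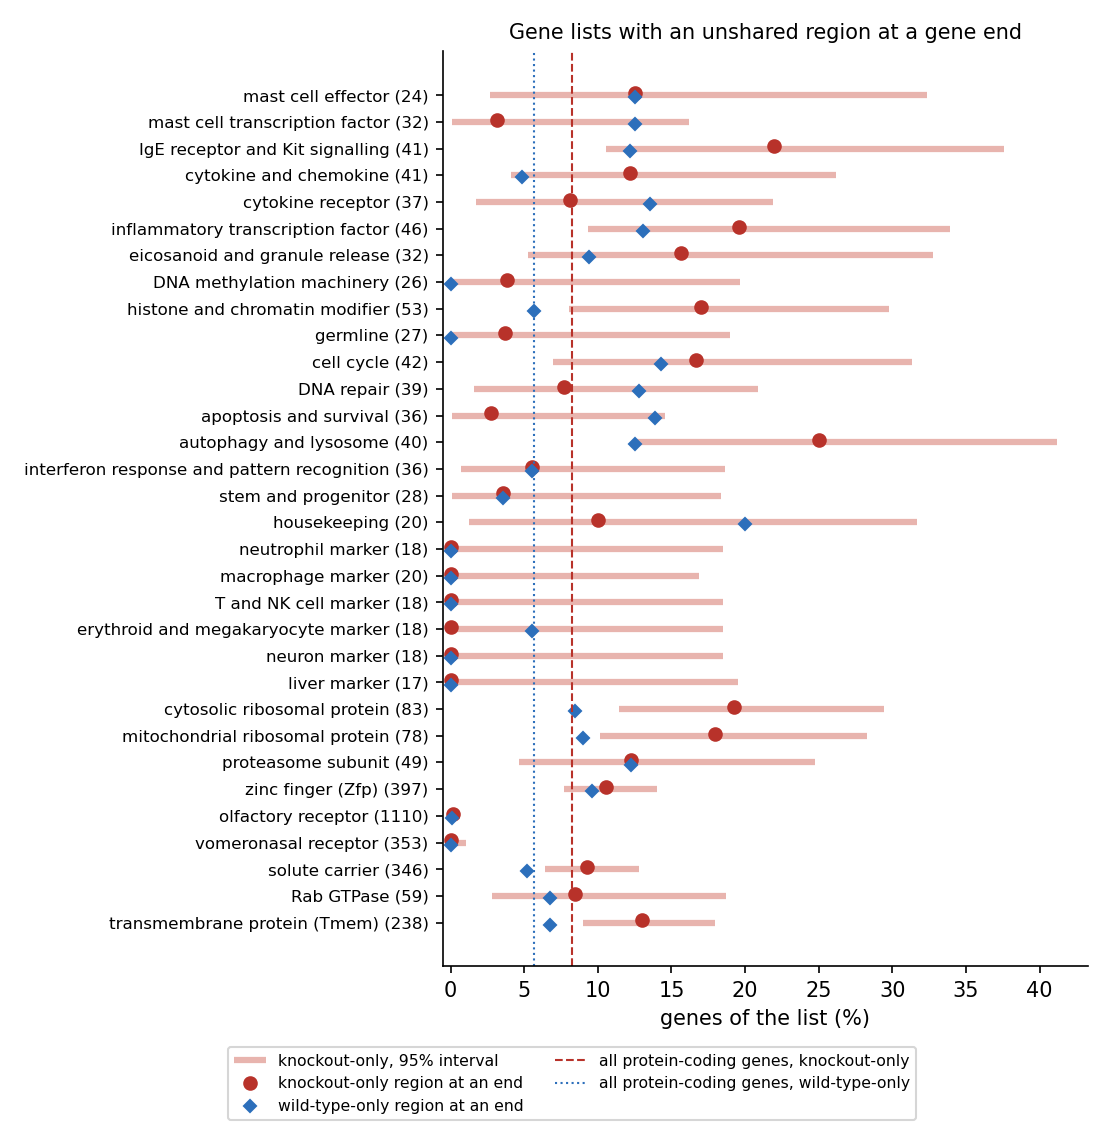
Percent of genes of each list (number of genes in brackets) with a knockout-only region at an end (red points, with exact 95% intervals) and with a wild-type-only region at an end (blue diamonds), for lists of 15 or more genes. The dashed and dotted lines mark 8.27% and 5.65% of all protein-coding genes, and most intervals reach across 8.27%. The autophagy and lysosome point (10 of 40) is at 5 of 40 with equal numbers of peaks.

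Markers of other cells were counted against the same 8.27% of all genes. None of 18 neutrophil, 20 macrophage, 18 T and NK cell, 18 erythroid and megakaryocyte, 7 basophil, 18 neuron and 17 liver markers had one. Of 14 B cell markers 1 had, Cd72 (−log10 q 5.28, 5 reads). A shared region lay at an end of 3 macrophage, 3 T and NK cell and 4 erythroid and megakaryocyte markers, and no neutrophil marker had any region. These lists are short and most of their genes had no region of any class, so the counts do not set members apart from other regions, and the exact interval of each list includes 8.27%.

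The promoters under the members were rich in CpG, much like those under other regions. Each member that overlapped a RefSeq promoter window was matched to the window whose start was nearest to its summit, which gave 855 windows. A window reaches between 250 bases before and 50 bases after an annotated start, or 300 bases in all. No other region lay over 791 of the 855, so the classes can share windows. The 855 windows held a median of 22 CpG, against 21 under wild-type-only regions, 23 under shared regions and 13 over all 21020 windows. At or above the median of all windows were 84.4% of the members' windows (81.8 to 86.8), against 83.1% (79.7 to 86.2) under wild-type-only regions, 90.1% (89.1 to 91.0) under shared regions and 51.4% of all. Shared regions whose knockout peak had a −log10 q below 10, the strength of most members, gave 87.0% (84.99 to 88.9), which overlaps the members' interval. Fewer than 10 CpG were found in 8.19% of the members' windows, 9.72% of wild-type-only, 5.13% of shared and 42.7% of all windows.

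**Figure D5:**
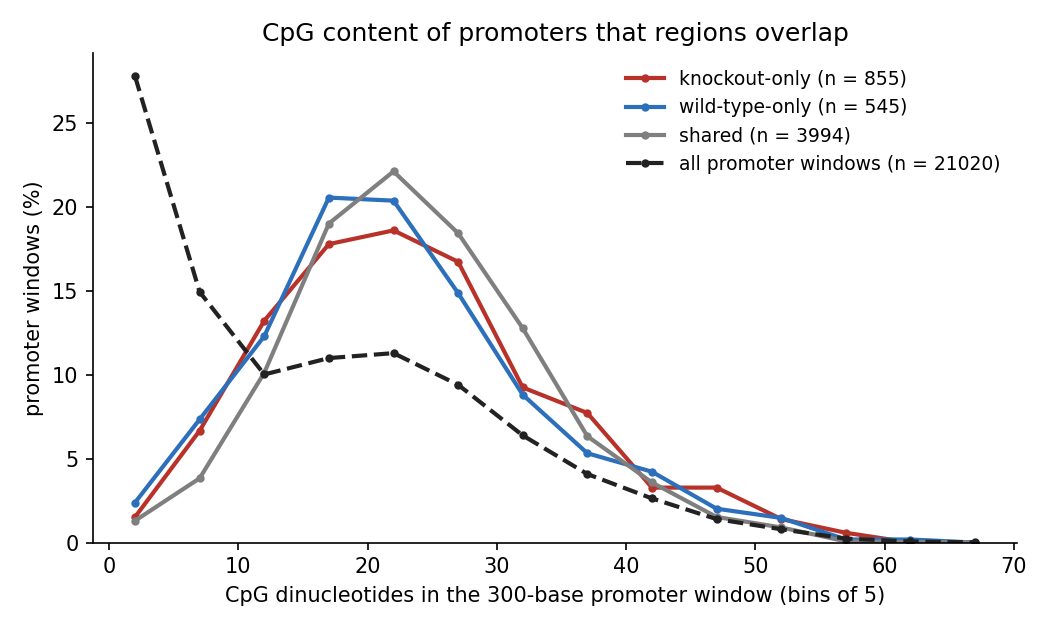
CpG dinucleotides per promoter window of 300 bases (x axis, bins of 5) against the percent of windows, for windows under knockout-only, wild-type-only and shared regions and for all windows. The region classes share a median of 21 to 23 CpG, and all windows have a large share below 10 (42.7%).

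Median strength differed little between promoters of low and high CpG content. The median −log10 q of members was 6.83 over windows with fewer than 10 CpG, 6.91 with 10 to 19, 6.68 with 20 to 29 and 6.68 with 30 or more, with a median pileup of 7 reads in each. The members with the highest counts were at Foxk2 and Gas2 (59 CpG in the 300 bases each), Tanc2 and Kif2a (57 each) and Tfdp1 (56), and their −log10 q ran between 4.70 and 8.90. Those with the lowest were at 1700003F12Rik, Cd244a, Gpbar1 and Tpsg1 (2 each) and Trim12c (3), with −log10 q of 19.8, 7.43, 5.49, 4.94 and 10.7. Cd244a encodes a receptor of the SLAM family on natural killer and mast cells, and Gpbar1 a bile acid receptor.

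Short sequence motifs were searched on both strands of the same windows, as descriptions of letters and not of bound factors. The SP/KLF motif GGGCGG was in 71.5% of the members' windows (68.3 to 74.5), against 65.7% (61.5 to 69.7) of wild-type-only, 75.5% of shared and 46.6% of all windows. The ETS motif CCGGAAG was in 21.6%, against 23.9% of wild-type-only, 23.3% of shared and 11.7% of all windows. The CCAAT motif was in 33.3% of the members' windows (30.2 to 36.6) and 30.5% of wild-type-only windows (26.6 to 34.5), against 49.1% of shared (47.5 to 50.6) and 38.5% of all windows. Shared regions with a knockout −log10 q below 10 gave 36.9% (34.1 to 39.7), an interval that overlaps that of the members. The cyclic AMP response motif TGACGTCA was in 5.85% of the members' windows (4.37 to 7.64) and 2.26% of all windows. It was in 4.40% of wild-type-only (2.84 to 6.48) and 4.13% of shared windows (3.54 to 4.80), and both intervals overlap that of the members. The GATA motif AGATAA was in 6.08% of the members' windows, against 5.87% of wild-type-only, 4.66% of shared and 9.69% of all windows. The TATA motif TATAAA was in 6.43%, against 7.89% of wild-type-only, 5.06% of shared and 12.7% of all windows. The Slc18a2 window above holds the GATA and SP/KLF motifs, that of Lat the E-box CACGTG, and that of Foxk2 the SP/KLF and CCAAT motifs.

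Members were spread over all chromosomes, and the knockout-only share of regions at gene ends ran between 15.4% on chromosome 3 and 28.4% (23.4 to 33.8) on chromosome 19, with 86 members among 303 regions there. Set against wild-type-only regions, members were most frequent on chromosome X, with a ratio of 2.23 (1.32 to 3.87, 49 against 22 regions). That interval includes the 1.49 of all chromosomes together, and chromosome X had the fewest members per 100 genes, 5.07. The lowest ratio was on chromosome 17, at 0.971 (0.683 to 1.38, 67 against 69). Chromosome 19 had a ratio of 1.95 (1.34 to 2.88) and the most members per 100 genes, 12.2. The genes with knockout-only regions alone had a median length of 22.0 kb, against 19.7 kb for genes with wild-type-only regions alone, 21.9 kb for genes with a shared region and 17.3 kb for all. Inside 14.0% of the genes with knockout-only regions alone (12.1 to 16.1), more than 1 kb from either end, lay a further knockout-only region. The share was 13.0% (10.7 to 15.7) for genes with wild-type-only regions alone and 12.7% (11.9 to 13.6) for genes with a shared region. Both intervals overlap that of the first group, and the share of all genes was 10.2%.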

How the data were processed

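ATAC-seq peak lists of 1 Dnmt3a knockout and 1 wild-type culture were used. The submitters' processing notes name Trimmomatic, Bowtie2, MACS2 and the mm10 and GRCm38 builds, without versions or settings. Peaks were called per library. The deposited columns are the authors' own peak values: a score (10 times the −log10 q, in 100% of peaks), the fold enrichment over local background (a ratio), and −log10 p and −log10 q. They were used only to describe, rank or filter peaks within a list.

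The pileup of reads at each summit was recovered as the whole number whose Poisson probability and fold match the deposited −log10 p and fold to within 0.001, which succeeded for 100% of peaks. Intervals that overlapped by at least 1 bp were merged. Gene intervals (21631 protein-coding genes) and promoter windows are from RefSeq, GRCm38.p6. The promoter table gives the strand of 17274 genes, and other genes enter only counts that need no strand. Shares carry exact Clopper-Pearson 95% intervals, and ratios the interval of the matching share. The steps were tested on simulated peaks. Python 3.11.15, NumPy 2.4.6, pandas 2.3.3, SciPy 1.17.1 and Matplotlib 3.10.9 were used.

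The members and the gene lists were chosen with earlier results of these data known. Genes were named by rule: the 15 members with the highest −log10 q, up to 4 genes per list with the strongest members, genes with the most members, the members nearest the distance limit, those near most genes, those of extreme CpG count, and Dnmt3a. Other list genes with a member were named for completeness after their values were seen. Some genes that meet these rules are not reported here.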

Additional observations from a re-analysis of the deposited data

How the results depend on the processing

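No paired analysis was possible because there was 1 library of each genotype. The number of members stayed within 1.5 times of 1617 under every alternative, between 1215 and 2278, as did the number of listed genes with a member and the number of genes with knockout-only regions alone. At gene ends, the ratio of members to wild-type-only regions turned to 0.923 with equal numbers of peaks, was 1.22 when only knockout peaks without a partner had to reach a −log10 q of 5, 1.27 under a reciprocal overlap of 50%, 1.66 with a −log10 q limit of 5 on both lists and 1.71 when no peak of the other library lay within 1 kb. In those same settings where they moved, the share of knockout-only regions at gene ends was 27.8% (reciprocal overlap), 25.8% (5 in both lists) and 21.4% (no peak within 1 kb), and it was 31.2% with ends within 2.5 kb, 21.4% with 500 bp and 30.3% with all gene types. The share at a gene start was 84.6% with 2.5 kb, 94.2% with 500 bp, 88.2% with all gene types and 88.7% with no peak within 1 kb. The share with a shared region at the same end was 14.5% with 5 in both lists, 19.1% with 2.5 kb and, by construction, 0.163% with no peak within 1 kb. The median −log10 q, fold and pileup were 7.18, 6.78 and 8 with 5 in both lists, 7.08, 6.67 and 8 with 5 for unpartnered knockout peaks, 7.20, 6.78 and 8 with equal numbers, and 6.91, 6.56 and 8 with reciprocal overlap, and the −log10 q was 6.68 with summits within 200 bp. The CpG share was 80.8% by an observed to expected ratio of 0.6 or more. Leaving out chromosome 19, chosen after seeing the data, moved none of these. Of 385 counts of genes per list, 39 moved beyond 1.5 times, and of 143 motif shares none left its interval. Members rest on a median of 7 reads at the summit, and the effect of depth was not tested.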
